A study of Mus musculus with 14 samples.

Results

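The peaks described here lie at the genes of 3 GATA transcription factors, Gata1, Gata2 and Gata3, and at Zfpm1, the gene of FOG1, their zinc finger cofactor. They were taken from a merged list of open chromatin in mouse blood progenitors. Members were the 55 peaks that the list gives to 1 of these 4 genes as the nearest transcription start site (TSS). Added were 19 peaks that lie within 100 kb of the TSS of Gata2 (12 peaks) or Gata3 (7 peaks) and are given to other names. Together these were 74 of the 92842 peaks.

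The assay was ATAC-seq, which uses a Tn5 transposase to insert sequencing adapters where DNA is open. Multipotent progenitors (MPP), common myeloid (CMP), common lymphoid (CLP), megakaryocyte-erythroid (MEP) and granulocyte/macrophage (GMP) progenitors and B cell progenitors (ProB) were sorted from bone marrow. T cell progenitors (ProT) came from thymus. Each of the 7 cell types had 2 libraries, and all mice were wild-type C57BL/6 adults of 8 to 12 weeks. Whether these libraries came from separate mice is not stated. The deposited list merges all 14 libraries without a column per library, so it does not show which cell types a peak was open in. It gives no signal: the peak score was 0 for every peak, depth is unknown, and each peak was 499 bp wide. Values below are therefore counts and positions with no replicate error and no test, and neither levels in a cell type nor the sort by its markers could be examined.

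GATA factors bind the DNA word GATA through paired zinc fingers. GATA2 acts in stem and progenitor cells, GATA1 in red cells, megakaryocytes, eosinophils and mast cells, and GATA3 in T cells and innate lymphoid cells. During red cell development GATA1 replaces GATA2 at shared sites, including sites at the Gata2 gene itself, a change called the GATA switch. FOG1 binds the amino-terminal finger of GATA factors rather than DNA and recruits the NuRD corepressor complex. Gata1 and Gata2 are each read from alternative first exons, of which the proximal one is the main one of Gata1 in red cells and the distal one of Gata2 is used in blood progenitors.

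The 250 bases before each start that RefSeq's promoter table (GRCm38.p6, the assembly of mm10) gives for the members are shown, since they separate the members in what follows. There are 5 such starts, 2 of them at Gata2. Capitals mark GGGCGG, a GC box that Sp1-type factors recognise, on either strand, and GATA. Each sequence runs 5′ to 3′ along its gene.
Gata1 (chrX:7967911-7968160, - strand): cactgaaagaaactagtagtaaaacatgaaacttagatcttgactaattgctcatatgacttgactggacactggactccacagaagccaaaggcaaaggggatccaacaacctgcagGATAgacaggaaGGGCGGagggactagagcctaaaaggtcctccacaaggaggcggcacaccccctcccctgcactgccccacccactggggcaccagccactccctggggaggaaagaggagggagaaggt
Gata2, upstream start (chr6:88193641-88193890, + strand): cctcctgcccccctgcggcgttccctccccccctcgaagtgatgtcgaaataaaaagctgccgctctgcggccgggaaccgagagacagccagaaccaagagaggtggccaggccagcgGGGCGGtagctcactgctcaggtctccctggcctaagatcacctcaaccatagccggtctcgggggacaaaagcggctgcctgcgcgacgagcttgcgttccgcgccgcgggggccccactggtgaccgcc
Gata2, downstream start (chr6:88198414-88198663, + strand): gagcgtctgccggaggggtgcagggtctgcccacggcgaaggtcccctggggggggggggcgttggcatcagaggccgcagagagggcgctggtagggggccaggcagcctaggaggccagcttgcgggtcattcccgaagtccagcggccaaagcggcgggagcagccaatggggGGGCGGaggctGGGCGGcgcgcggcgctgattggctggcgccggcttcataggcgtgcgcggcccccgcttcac
Gata3 (chr2:9878601-9878850, - strand): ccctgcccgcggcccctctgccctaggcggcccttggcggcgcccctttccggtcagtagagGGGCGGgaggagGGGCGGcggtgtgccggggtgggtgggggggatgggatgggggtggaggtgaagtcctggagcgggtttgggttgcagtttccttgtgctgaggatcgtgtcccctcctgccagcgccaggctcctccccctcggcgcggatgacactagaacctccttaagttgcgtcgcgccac
Zfpm1 (chr8:122281891-122282140, + strand): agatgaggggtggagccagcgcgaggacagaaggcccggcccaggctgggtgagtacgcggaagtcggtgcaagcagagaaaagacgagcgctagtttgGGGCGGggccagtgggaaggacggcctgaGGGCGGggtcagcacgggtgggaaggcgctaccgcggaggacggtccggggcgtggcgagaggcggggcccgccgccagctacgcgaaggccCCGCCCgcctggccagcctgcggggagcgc

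A peak covered all 250 bases at Gata1 and at Gata3, 113 of them at Zfpm1 and 0 at either start of Gata2. A peak centre lay within 1 kb of the TSS in 3 of the 4 members, against 68% of the 19105 genes named in the list. At Gata1 the peak (chrX:7967792-7968290) was centred 131 bp upstream of the TSS. At Gata3 (chr2:9878431-9878929) the centre lay 80 bp upstream, and at Zfpm1 (chr8:122281505-122282003) 387 bp upstream. At Gata2 the nearest peak centre was 4148 bp from the upstream start and 4670 bp from the downstream start. Over all RefSeq starts of coding genes, 61.7% of 17491 genes had such a peak, and Gata2 had none.

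The CpG content of these sequences did not follow the same order. The Gata1 sequence held 2 CpG and 54% G and C, while those of Gata2 held 22 and 24 CpG, that of Gata3 19 and that of Zfpm1 28. The median over 21262 coding starts was 10 CpG and 55.6% G and C. Of coding starts with at most 2 CpG, 13.0% had a peak within 1 kb (623 of 4801), and Gata1 was among these. Of coding starts with at least 22 CpG, 10.3% had none (426 of 4140), and both starts of Gata2 were among these. 

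**Figure D1:**
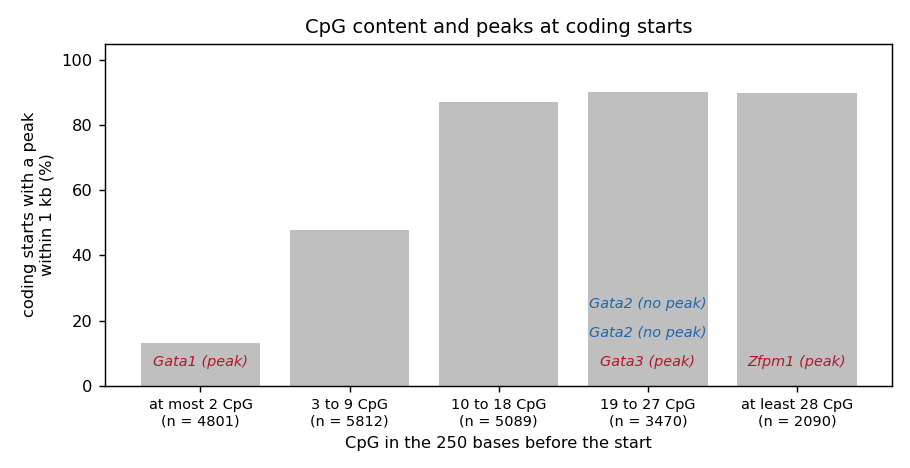
Share of coding starts with a peak centre within 1 kb (vertical axis, percent), by the number of CpG in the 250 bases before the start (horizontal axis, n starts below each bar). Names give the members' starts in their class: Gata1 has a peak in the class at 13.0%, and both Gata2 starts have none in the class at 90.1%.

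GATA sites were searched on both strands as AGATAA, as AGATAG, as TGATAA or as TGATAG, and 0 of the 5 member sequences held one, against 23.6% of coding starts. With the 4 letters GATA alone, the Gata1 sequence held 1 match, at bases -132 to -129 from its TSS, and the other starts none, against 49.4% of coding starts. GGGCGG was present in 5 of 5 member sequences, against 42.6% of coding starts. All of these sequences but that of Gata1 held more CpG than the median coding start, and the part of CpG in this share was not tested. CCACCC, a word bound by the Krüppel-like factor family, was present in those of Gata1, Gata3 and Zfpm1 and in neither of Gata2, against 30.2% of coding starts. No GGGCGG match shared a base with a CCACCC match. CCAAT was present in 1 of the 5 member sequences, that of the downstream Gata2 start, against 35.4% of coding starts, and TATAAA in 0 of 5, against 11.6%. These last 4 words were not part of the planned search, and a match is a description of letters, not of binding.

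Peak number divided the members into a pair with few peaks and a pair with many. Zfpm1 was given 28 peaks, Gata3 21, and Gata1 and Gata2 3 each, against a median of 3 and a range up to 88 over all genes named. At least 20 peaks were given to 2 of the 4 members, against 2.63% of the genes named, which leave out genes without a peak. As many peaks as Zfpm1, or more, were given to 163 genes (0.853%), and as many as Gata3 to 420 genes (2.20%), the member itself included each time. At least 3 peaks, the number of Gata1 and Gata2, were given to 58.5% of the genes named.

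**Figure D2:**
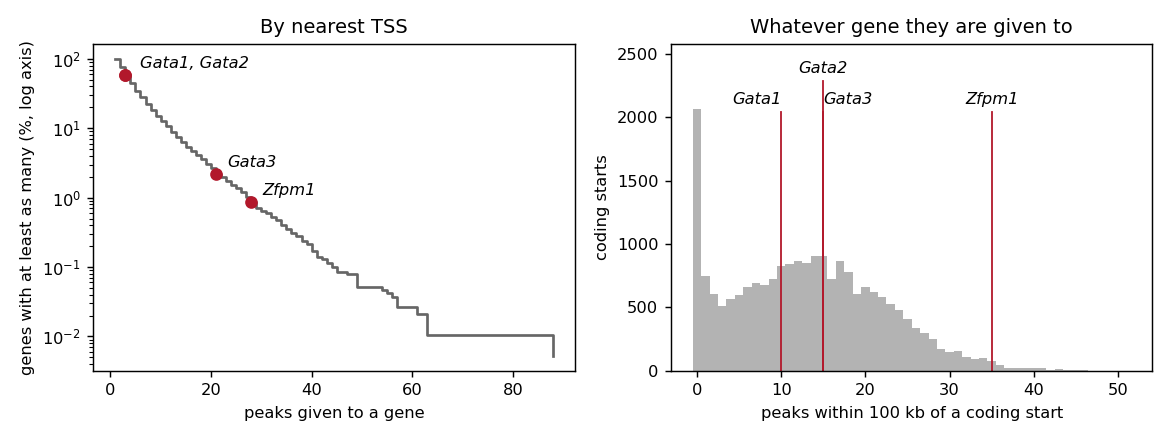
Left, the percent of genes (log axis) given at least as many peaks as shown on the horizontal axis, with the 4 members as red points, Gata1 and Gata2 at 3, Gata3 at 21 and Zfpm1 at 28. Right, the number of coding starts by the peaks within 100 kb of them, with red lines at Gata1 (10), Gata2 and Gata3 (15 each) and Zfpm1 (35).

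Counted by position instead of name, Gata2 had as many peaks near its TSS as Gata3. Within 100 kb of the TSS lay 10 peaks at Gata1, 15 each at Gata2 and Gata3 and 35 at Zfpm1, against a median of 13 (quartiles 6 and 19) over 21262 coding starts. At least 15 peaks were found at 42.9% of coding starts and at least 35 at 1.27%. Gata1 lies on the X chromosome, whose 960 coding starts had a median of 4 peaks within 100 kb, and 18.4% of them had at least the 10 of Gata1. Of the peaks within 100 kb, 12 of 15 at Gata2 and 7 of 10 at Gata1 were given to other names, against 7 of 15 at Gata3 and 11 of 35 at Zfpm1.

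**Figure D3:**
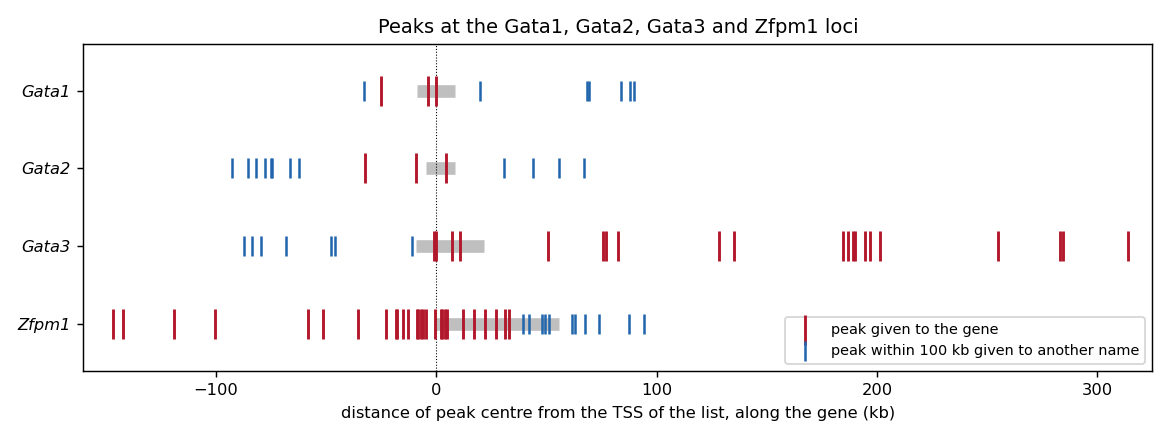
Peak centres by their distance from the list's TSS in the direction of the gene (kb), 1 row per locus. Red marks are peaks given to the gene and blue marks are peaks within 100 kb given to another name, and grey bars are the RefSeq gene. Red marks of Gata3 run out to 314 kb downstream, while those of Gata2 stay within 32.4 kb.

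At Gata1, the master factor of red cells and megakaryocytes, all 3 peaks lay at or upstream of the TSS. Besides the promoter peak, 1 lay 3.55 kb upstream (chrX:7971211-7971709) and 1 lay 25.2 kb upstream (chrX:7992897-7993395), in a B1_Mus2 element of the Alu family of SINEs. The list calls both intergenic, although the first falls inside the longest RefSeq model of Gata1 (chrX:7959260-7976663). Described elements of the mouse gene, placed here from general knowledge by rounded distances, are an enhancer at -3.5 kb, a hypersensitive site at -25 kb, a double GATA site at -0.7 kb and an intronic element at 3.5 kb. By these rounded distances the first pair lay 50 and 236 bp from a peak centre. The site at -25 kb was thus near a peak's edge, and rounding cannot place it inside or outside. The double GATA site lay 569 bp from the nearest peak centre and the intronic element 3.63 kb from it, so neither fell inside a peak.

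The other 7 peaks within 100 kb of Gata1 were given to 5 neighbours. Hdac6, a cytoplasmic deacetylase gene, had 1 peak, at its promoter, 20006 bp downstream of the Gata1 TSS. Pqbp1 had 2, 68.6 and 69.6 kb downstream, Slc35a2, a nucleotide sugar transporter gene, 1 at 83.8 kb and the kinase gene Pim2 2 at 87.9 and 89.7 kb. Upstream, 1 peak at 32.9 kb was given to Glod5.

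At Gata2, the 3 peaks given to the gene left both starts free. One lay in intron 4 of 5 (chr6:88203085-88203583), 1 upstream of the gene in a CpG island (chr6:88189494-88189992) and 1 farther upstream (chr6:88165975-88166473). From the upstream start, from which the elements of the mouse gene are named, these stood at 9.44, -4.15 and -27.7 kb. By the rounded position in its name, the intronic GATA switch enhancer 9.5 lay 57 bp from the centre of the first. The switch site named -3.9 lay 248 bp from the centre of the second, at the edge of the peak. Its rounded position cannot place that site inside or outside the peak. The sites named -2.8 and -1.8 lay 1.35 and 2.35 kb from the nearest peak centre and in no peak.

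The largest group of peaks around Gata2 stood under the name of another gene. Upstream, 8 peaks between 62.3 and 92.4 kb from the list's TSS were given to Mir6376, a microRNA gene within Rpn1, and the coding start nearest to each of the 8 was that of Rpn1, an oligosaccharyltransferase subunit gene. Of these, 5 formed a cluster with centres at most 5 kb apart (chr6:88113057-88124432, 11.4 kb), and 1323 clusters in the whole list had as many peaks or more. The second of the 5 (chr6:88116647-88117145) was centred 77.0 kb upstream of the upstream start. That is the rounded position of the -77 enhancer, which GATA2 expression in progenitors requires in the mouse. The rounded name does not fix the enhancer's place within the peak. Downstream, 4 peaks from 30.7 to 66.9 kb were given to Dnajb8, a chaperone gene, 1 of them in intron 6 of 6 of Eefsec, a translation elongation factor gene. Just beyond the limit of 100 kb lay a peak given to Dnajb8 at 108 kb downstream and 1 given to Rpn1 at 114 kb upstream.

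**Figure D4:**
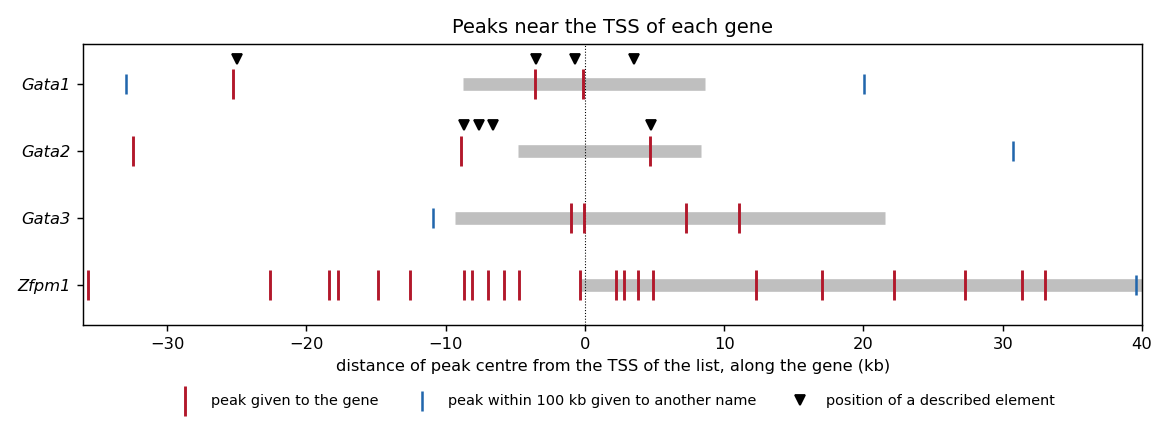
Peak centres near the TSS of each gene (distance along the gene, kb), with red marks for peaks given to the gene, blue marks for peaks given to other names and grey bars for the RefSeq gene. Triangles are the rounded positions of described elements of Gata1 and Gata2. Zfpm1 has peaks on both sides of its TSS, and Gata2 has none from -8.92 to 4.67 kb.

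Gata3, the factor of T cell commitment and of type 2 helper cells, had most of its peaks far from the gene. Of its 21 peaks, 17 lay over 50 kb from the TSS (81.0%, against 25.7% of all peaks) and 13 over 100 kb (61.9%, against 12.4%). All 17 lay downstream, in a stretch without coding genes. The next RefSeq gene past the 3′ end is the noncoding Gm13218, 264 kb away, and the next coding one in the table used is Celf2, 2461 kb away. The 4 peaks near the gene were the promoter peak, 1 at 1015 bp upstream (chr2:9879366-9879864) and 1 each in introns 3 and 4 of 5, 7.27 and 11.0 kb downstream.

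Within the downstream stretch the peaks were grouped. A cluster of 7 peaks (chr2:9677049-9694263) spanned 17.2 kb, with centres 185 to 201 kb downstream of the TSS, and 312 clusters in the whole list had as many peaks or more. Its outermost peak lay in an L1Md_F2 element, a LINE-1 repeat. A pair lay 283 and 284 kb downstream (chr2:9595303-9595801 and chr2:9593857-9594355), 3.05 kb or more from the rounded position, 280 kb, of the T cell enhancer described for the mouse gene. The extent of that enhancer was not used, so the pair cannot be placed inside or outside it. The remaining downstream peaks were a pair at 75.9 and 76.9 kb and single ones at 50.7, 82.5, 128, 135, 255 and 314 kb. The peak at 255 kb lay in an MLT1J element, an old LTR.

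On the other side of Gata3, 7 peaks were given to the noncoding gene 9230102O04Rik. One was at the start of that gene, 10.9 kb upstream of the Gata3 TSS (chr2:9889286-9889784), and 6 lay in introns of Taf3, a TFIID subunit gene, from 45.8 to 87.2 kb upstream. For 6 of the 7, Gata3 was the nearest coding start, and for 1 it was Taf3. The next peak upstream, 108 kb away, was given to Taf3 itself. Of the 7, 2 lay in LTR elements, MTE2b and ORR1A2.

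Zfpm1 had the densest set. A single cluster of 15 peaks (chr8:122259305-122287306) spanned 28002 bp around the TSS, with centres from 22.6 kb upstream to 4.92 kb downstream. In the whole list 5 clusters had at least 15 peaks. The others lay at Rbm38 (20 peaks), Irf2bp2 (17), Tbc1d2b (16) and across Glrx5, Mir3069 and Syne3 (15). The cluster held 10 peaks upstream of the promoter peak, the promoter peak, and 4 in intron 1 of 9. Among the upstream ones, that at 8.08 kb lay in an MLTR11A element of the ERVK family. Over all members, 27 of 74 peaks lay in a cluster of at least 5, against 8.52% of all peaks, and they came from Zfpm1 (15), Gata3 (7) and Gata2 (5).

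The rest of the Zfpm1 peaks thinned out on both sides. Upstream, 7 lay from 35.7 to 147 kb away, 2 of them a pair at 142 and 147 kb. The list calls the upstream peaks intergenic, but 12 of them fall inside the longest RefSeq model of Zfp469 (chr8:122043123-122272650). Downstream, 3 more lay in intron 1 and 3 in intron 3, up to 33.0 kb. The gene body held further peaks that the list gives elsewhere: beyond 39.3 kb, the midpoint between the TSSs of Zfpm1 and Trhr2, a hormone receptor gene, peaks fall to Trhr2. Of 15 peaks in introns of Zfpm1, 5 were given to Trhr2 (33.3%, against 26.5% of all peaks in introns of a gene in the table). Trhr2 was also given 4 peaks past the 3′ end of Zfpm1, from 61.8 to 74.1 kb downstream of the Zfpm1 TSS. Zc3h18 was given 2, an intergenic one at 87.7 kb and its promoter peak at 94.5 kb. The RefSeq gene of Zfpm1, 56.0 kb long, held the 15 peaks in its introns. Among 2375 coding genes 42.0 to 74.7 kb long the median was 3, and 17, Zfpm1 included, had 15 or more.

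By class, 49 of the 74 peaks were intergenic (66.2%, exact 95% interval 54.3 to 76.8), against 39.3% of all peaks, and 20 were in introns (27.03%, against 42.0%). The class is the list's own label. It includes the 12 Zfpm1 peaks inside the longest model of Zfp469. It also includes the peaks 3.55 kb upstream at Gata1 and 1015 bp upstream at Gata3, each inside its own gene's RefSeq model. Such cases were not counted among all peaks. Promoter-TSS sites held 4 (5.41%, against 11.6%), 1 of them that of 9230102O04Rik. A transcription termination site held 1, and exons and untranslated regions held 0. Repeats were named for 8 peaks (10.8%, interval 4.78 to 20.2), against 16.0% of all peaks. None of these 8 was at Gata2. The intervals cover counting error only, and peaks of 1 locus are not independent. These counts weight Gata3 and Zfpm1, which hold 28 members each.

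The related genes, listed from general knowledge of the GATA factors, showed how the counts vary among partners and targets. Of the GATA family members that act outside blood, Gata4, the heart and gut factor, had 1 peak, Gata6 2 and Gata5 3, and none of the 3 had a peak within 1 kb of its TSS. Zfpm2, the gene of FOG2, had 5 peaks, and Trps1, an atypical GATA repressor, 55. The median of these 5 was 3, against 12 for the 4 members and 3 for all genes named in the list. The members' median falls between their 2 pairs, at 3 and 3 and at 21 and 28.

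Partners of GATA factors in blood had a median of 6 peaks over 11 genes, and each of the 11 had a promoter peak, within 1 kb. The ETS factor gene Fli1 led with 42, the transcription factor gene Runx1 had 39 and the corepressor gene Cbfa2t3 20. Corepressors of the NuRD and CtBP groups, which FOG proteins recruit, had a median of 3.5 over 14 genes, led by the methyl-CpG binding gene Mbd2 with 27, Mta3 with 16 and Ctbp2 with 9. A peak within 1 kb was given to 13 of the 14.

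GATA1 target genes of red cells and platelets had a median of 4 peaks over 11 genes, and 11 of 11 had a promoter peak. The stem cell factor receptor gene Kit led with 20, and the platelet receptor gene Gp9 had 8. GATA3 targets and partners of T cells had a median of 3 over the 8 of 9 with a peak, and 4 of 9 had a promoter peak. The T cell factor genes Tcf7 and Bcl11b led with 9 and 8, Il1rl1, the interleukin 33 receptor, had 6, and Zbtb7b, a factor of CD4 T cell choice, had none by name. These shares stand beside 68% of the genes named in the list, which leave out genes without a peak such as Zbtb7b. Over coding genes with or without a peak, 61.7% of 17491 had a peak within 1 kb of a RefSeq start. Nothing was tested between lists.

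**Figure D5:**
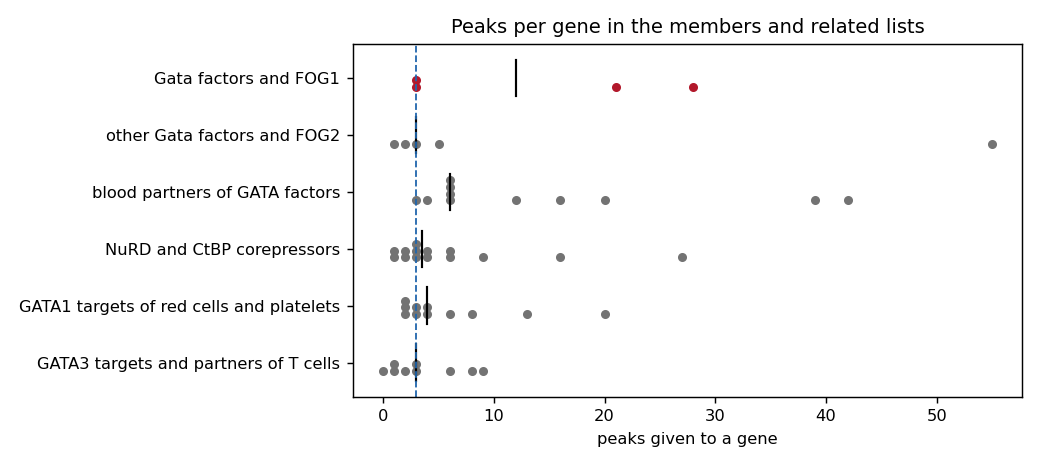
Peaks given to each gene (horizontal axis) in the 4 members (red) and in 5 lists of related genes (grey). Black lines are the medians of each list's genes with a peak, and the dashed line is the median of all genes named, 3. Members lie at 3, 3, 21 and 28, and the highest grey point, at 55, is Trps1.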

How the data were processed

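ATAC-seq libraries of 7 sorted mouse cell types, 2 each, were available as 1 deposited merged peak list. The authors annotated it against mm10 with annotatePeaks, per the file header. HOMER 4.10.2 is named in the submitters' processing notes. Aligner, peak caller, threshold and merging: not given in the sources used here. The deposited list gives positions and distances in bp and a score of 0 for every peak. The list has 0 columns of values per library.

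Python 3.11.15 with pandas 2.3.3 counted peaks by the name given, by windows of 100 kb around each TSS and by clusters of centres at most 5 kb apart. Each TSS was recovered from the distances and equalled a start of RefSeq's tables (GRCm38.p6), which are not complete. Exact 95% intervals came from scipy 1.17.1. The motif search and window counts were tested on simulated or directly counted data. Described elements and 5 gene lists came from general knowledge. Members, lists and tests were chosen with earlier results of these data known. Named from each list were its 3 most peak-rich genes and any gene without a peak (1 gene is not reported here), and every member peak and every other name within 100 kb was accounted for. Genes at the largest clusters were named after their values were seen. Protein sequences and the sequences under distal peaks were not analysed here.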

Additional observations from a re-analysis of the deposited data

How the results depend on the processing

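No paired analysis was possible because the list has no value per library. Of 38 alternative values for 19 results, 22 were within 1.5 times the main one. Peaks by name within 50 kb were 4 for Gata3, and within 10 kb 3 for Gata3 and 10 for Zfpm1. Windows of 50 kb gave 5 peaks at Gata1, 5 at Gata2 and 7 at Gata3, against a median of 7 over coding starts. Windows of 200 kb gave 24, 28 and 32, against a median of 25. With centres at most 2.5 kb apart the largest cluster held 1 peak at Gata1, 2 at Gata2, 4 at Gata3 and 5 at Zfpm1, and the whole list had 198 clusters of at least 5. With 10 kb it held 8 at Gata2 and 26 at Zfpm1, and 14 clusters had at least 26. The 4 letters GATA alone matched 1 member start. Windows from both ends of the gene and any RefSeq start, chosen after seeing the data, moved no count beyond 1.5 times. Widths and scores carry no depth, so a missing peak shows only that none was listed.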

Other observations

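Over all coding starts, the words searched at the members split differently with openness. GATA in its 4 forms was present in the 250 bases before 16.4% of the 12841 starts with a peak within 1 kb, against 34.6% of the 8421 without one. GGGCGG was present before 59.2% of the starts with a peak, against 17.3% of those without. For CCACCC the shares were 33.4% and 25.2%. The share of starts with a peak also moved with CpG content, from 13.0% of starts with at most 2 CpG to 90.0% of those with at least 28, and its part in these shares was not tested.

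With coding starts alone deciding the nearest gene, Gata3 was nearest to 38 peaks, Zfpm1 to 30, Gata1 to 4 and Gata2 to 3, against a median of 4 over 13848 genes. Gata3 then stood above Zfpm1, the reverse of the order by name. Past the 3′ end of Gata3 the next coding gene in the table used is 2461 kb away, so peaks far downstream count for Gata3. Also counted for Gata3 were 6 of the 7 upstream peaks within 100 kb that the list gives to 9230102O04Rik. Within 100 kb of the TSS, Gata3 had 15 peaks against 35 for Zfpm1.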
